A study of Mus musculus with 7 samples.

Results

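Inflammasomes are protein platforms that turn danger signals into interleukin-1 release and lytic cell death, and 10 genes of this system were followed in embryonic mouse choroid plexus after exposure to red blood cells. The genes were Nlrp3, Pycard, Casp1, Casp4, Gsdmd, Il1a, Il1b, Il18, Il1rn and Il1r1. They were chosen by name, with earlier results of these data known, and all 10 were found among the 40873 genes analysed. The samples were lateral ventricle choroid plexus of CD-1 mice, an outbred stock, labelled wild type and pooled at embryonic day E15.5, and treatment preceded collection by 24 h. The treated group (3 libraries) had received red blood cells, prepared by washing whole blood of an E14.5 donor litter in saline with citrate as the anticoagulant. The control group (4 libraries) had received saline. All 7 libraries carry the label batch 1. How many embryos or litters went into a pool is not stated, and p-values therefore measure the spread between these libraries, which may be technical in part.

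In the textbook scheme, Nlrp3 senses cell stress and recruits the adaptor ASC, the product of Pycard, which in turn activates caspase-1. Caspase-1 cuts the precursors of interleukin-1 beta and interleukin-18 into active cytokines and cuts gasdermin D, whose released fragment forms pores in the plasma membrane. Mouse Casp4 encodes the protease usually called caspase-11, which responds to bacterial lipopolysaccharide in the cytosol and also cuts gasdermin D. Interleukin-1 alpha and interleukin-1 beta act through the receptor encoded by Il1r1, and the product of Il1rn occupies that receptor without signalling. The choroid plexus forms cerebrospinal fluid and holds macrophages of its own, a cell type in which this machinery is best known.

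Total counts ran from 5479812 to 7944404 in the red blood cell libraries and from 4393860 to 8386928 in the saline libraries. Markers of choroid plexus epithelium were detected for 12 of 12 genes, with summed levels of 19540 to 20980 CPM (counts scaled to library size, adjusted by TMM) with red blood cells and 19880 to 25090 CPM with saline, Ttr being the largest part. All 12 had edgeR log2 fold changes below 0 (median -0.10, also under each other scaling), though 10 of 12 without red blood cells 3. For 3 of the 12 all red blood cell libraries lay below all saline libraries, where 4.63% of all genes tested did so. None passed in edgeR, and DESeq2 called 2 as lower, Slc4a5 (-0.38, adjusted p = 3.2e-05) and Aqp1 (-0.24, adjusted p = 0.00266), where it called 0.291% of its genes as lower. One treated library, red blood cells 2, stood apart from the others in inflammatory genes. A list of 20 interferon response genes summed to 1051, 2780 and 669 CPM in red blood cells 1, 2 and 3, and to between 242 and 333 CPM with saline. For the 10 genes and the list genes it moved most, values without that library are given as well. In whole tissue, more cells of a type and more RNA per cell cannot be told apart.

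Nlrp3, Pycard, Casp1 and Gsdmd were detected at low levels in every library. Red blood cells 2 was the highest library for each of the 10 genes except Il1a and Il18. It stood farthest above the mean of red blood cells 1 and 3 for Il1b (21.7-fold), Casp4 (10.3-fold) and Il1rn (7.40-fold). Casp4 had 30, 165 and 6 counts in the treated libraries, against 3, 0, 1 and 3 in the saline libraries. Casp1 and Nlrp3 were higher in every red blood cell library than in any saline library, at 2.44-fold and 1.46-fold in the fitted values. Il1b was close to absent, with 14 counts in all treated libraries, 13 of them in red blood cells 2, and 1 count over the saline libraries. Il18 was not higher with red blood cells. In the edgeR quasi-likelihood test over all genes, 0 of the 10 genes passed an adjusted p of 0.05, and 4 of them had too few counts to be tested.

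Of the 10 genes, 6 had enough counts for that test (Nlrp3, Pycard, Casp1, Gsdmd, Il18 and Il1r1) and 4 did not (Casp4, Il1a, Il1b and Il1rn). Against the 0 of 6, 0.0605% of the 14869 genes tested passed in either direction. At an unadjusted p under 0.05, 3 of the 6 were higher (Nlrp3, Pycard and Casp1), where 5.22% of all genes tested were higher at that level. limma-voom called 0 of the 6, against 0.0605% of all genes, and 0 of the 6 with sample weights, against 0.323%. edgeR with no count filter called 0 of the 10, against 0.522% of all genes. DESeq2 called 1 of the 10, Casp4, where it called 1.11% of the genes it tested as higher. All red blood cell libraries lay above all saline libraries for Nlrp3 and Casp1 among the 6, where 4.96% of all genes tested did so. Of the 4 genes below the filter this was seen for Casp4, where 3.48% of such genes with at least 10 counts did so. The passing of the filter depended on the levels themselves, and these counts are no evidence about the group of 10 as a whole.

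**Figure D1:**
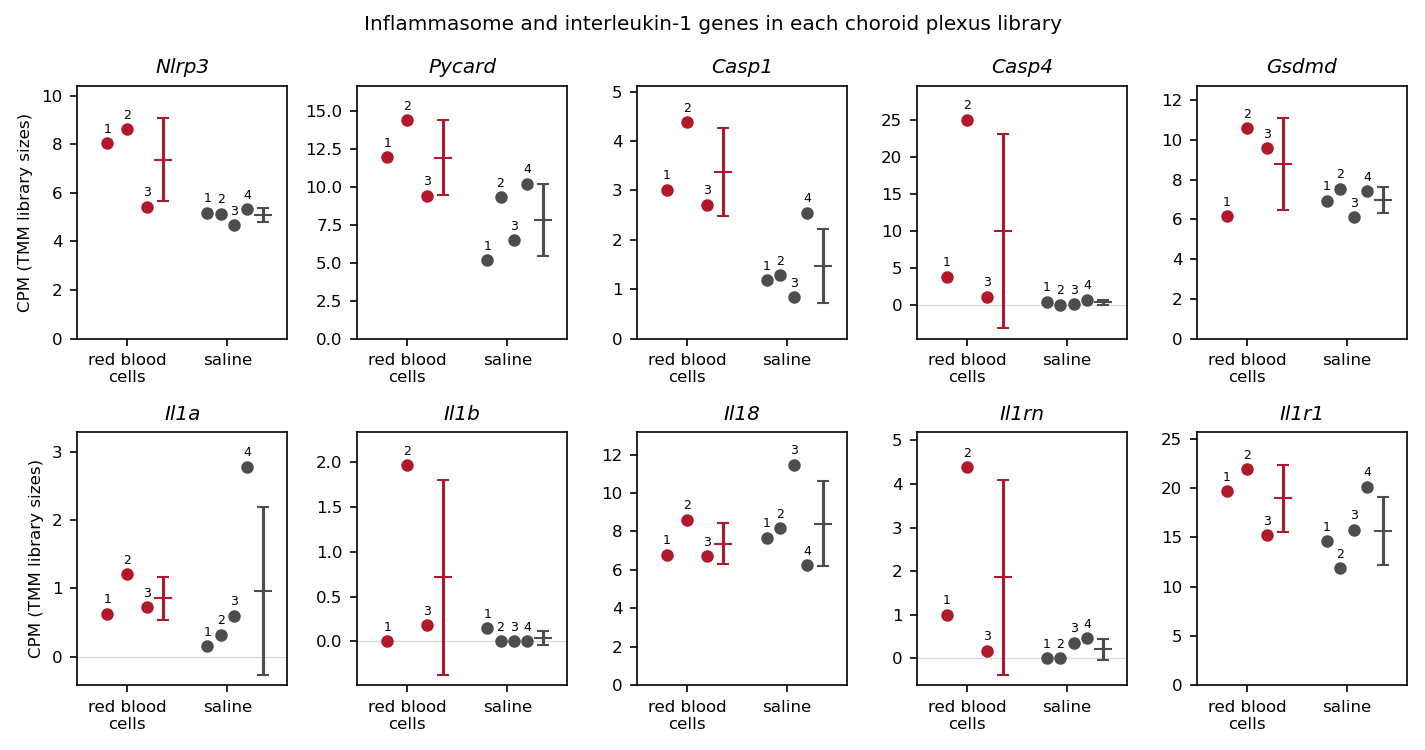
CPM of each of the 10 genes (vertical axes, linear, TMM library sizes) in the red blood cell libraries (red, left) and the saline libraries (grey, right); small digits are replicate numbers, and bars to the right of the points are mean ± SD (n = 3 and n = 4). Red blood cells 2 is the highest library for all genes but Il1a and Il18, including Casp4 (24.96 CPM), Il1b (1.97 CPM) and Il1rn (4.39 CPM). The groups overlap for all genes but Nlrp3, Casp1 and Casp4.

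Nlrp3 encodes the sensor that gives the best studied inflammasome its name. It had 8.04, 8.62 and 5.43 CPM in red blood cells 1, 2 and 3, and 5.17, 5.13, 4.67 and 5.33 CPM in saline 1 to 4. The saline libraries lay close together, and the lowest treated library, red blood cells 3, stood just above the highest of them, so the groups did not overlap. Treated libraries averaged 7.36 ± 1.70 CPM (SD, n = 3) and saline libraries 5.08 ± 0.29 CPM (SD, n = 4). On the log2 scale the difference was 0.55 ± 0.22 (SE), at an adjusted p of 0.402 in edgeR. Without red blood cells 2 it was 0.43 ± 0.25 and without red blood cells 3 it was 0.72 ± 0.21, and neither passed (edgeR adjusted p = 0.811 and 0.126).

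Pycard encodes ASC, the adaptor that links the sensor to caspase-1. It had 11.9, 14.4 and 9.42 CPM in red blood cells 1, 2 and 3, and 5.17, 9.31, 6.46 and 10.2 CPM in saline 1 to 4. The groups overlapped through saline 4, which exceeded red blood cells 3. The log2 fold change of 0.64 ± 0.24 (SE) did not pass (edgeR adjusted p = 0.379). It was 0.79 ± 0.25 without saline 4 and 0.48 ± 0.23 without saline 1.

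Casp1 encodes caspase-1, the protease that matures both cytokines. It rested on few reads, with 24, 29 and 15 counts in red blood cells 1, 2 and 3 and 8, 8, 7 and 11 counts in saline 1 to 4. Scaled to library size these were 3.01, 4.39 and 2.72 CPM with red blood cells and 1.18, 1.28, 0.837 and 2.55 CPM with saline. Every treated library was above every saline library, but saline 4, the shallowest library, came close to red blood cells 3. Casp1 had the lowest unadjusted p of the 6 genes (0.00636) and ranked 405th of all genes tested by that p. Its log2 fold change was 1.29 ± 0.39 (SE, edgeR adjusted p = 0.233). The value ran from 1.05 to 1.63 when single libraries were left out, lowest without red blood cells 2 and highest without saline 4, and passed in none of those fits.

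Casp4, the gene of mouse caspase-11, showed the widest gap between libraries. In CPM it had 3.77, 24.96 and 1.09 in red blood cells 1, 2 and 3, and 0.443, 0, 0.120 and 0.695 in saline 1 to 4. All 3 treated libraries were above all 4 saline libraries, and red blood cells 2 held 82.1% of the treated counts. The means were 9.94 ± 13.1 CPM with red blood cells, against 0.314 ± 0.315 CPM with saline, a ratio of 31.6. Over summed counts, 201 against 7, the ratio was 36.7 with a 95% interval of 17.5 to 92.4, which covers counting error only and not the spread between libraries. Without red blood cells 2 the ratio of means was 7.72. An exact two-sided permutation test over the 35 arrangements of the libraries gave p = 0.0571, the smallest that 3 against 4 allows. DESeq2 gave a log2 fold change of 5.05 ± 1.41 (SE) and an adjusted p of 0.0305. In edgeR the adjusted p was 0.460 with no count filter, 0.295 with a filter of 1 CPM in 3 libraries and 0.0928 without red blood cells 3, so the call rests on the tool.

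The start region of Casp4 is shown because 2 matches to a kB motif, the DNA element bound by NF-kB, were found there. That of Il1rn is shown because it held 1 match and its gene was likewise highest in red blood cells 2. Nlrp3, Pycard, Casp1, Il1b and Il1r1 were also highest in that library without a match in their promoters, and a link was not tested. The sequences shown are RefSeq promoters on GRCm38.p6, from 250 bases before to 50 after the start site. Both are on the plus strand, at chr9:5308599-5308898 and chr2:24345121-24345420. They are written 5′ to 3′, and capitals mark the matches.
Casp4: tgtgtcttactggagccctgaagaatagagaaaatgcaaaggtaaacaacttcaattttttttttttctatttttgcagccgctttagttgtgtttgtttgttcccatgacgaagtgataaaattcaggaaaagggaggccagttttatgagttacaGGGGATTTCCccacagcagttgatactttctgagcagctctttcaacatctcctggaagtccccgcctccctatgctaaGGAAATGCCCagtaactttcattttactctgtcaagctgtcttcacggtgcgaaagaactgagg
Il1rn: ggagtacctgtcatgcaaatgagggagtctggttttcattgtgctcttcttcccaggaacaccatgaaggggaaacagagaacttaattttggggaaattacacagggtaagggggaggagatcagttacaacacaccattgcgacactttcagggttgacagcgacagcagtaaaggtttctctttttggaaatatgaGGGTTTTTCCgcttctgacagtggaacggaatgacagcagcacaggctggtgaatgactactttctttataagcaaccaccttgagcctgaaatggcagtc

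Promoter sequences were found for 9 of the 10 genes (14 promoters, none for Gsdmd), and 3 motifs were searched on both strands: kB as GGG, any 2 bases and TTTCC, the interferon-stimulated response element (ISRE) as TTTC, any 2 bases and TTTC, and the gamma-activated site (GAS) as TTCNNNGAA, where N is any base. In Casp4 the kB matches were GGGGATTTCC from -93 to -84 on the plus strand and GGGCATTTCC from -14 to -5 on the minus strand, counted from the start site. In Il1rn the match was GGGTTTTTCC from -51 to -42. The other 10 promoters, including 1 further Il1rn promoter and that of Il1b, held no kB match. A second Casp4 promoter and 1 other Il1rn promoter in the table overlap those shown and hold the same matches, and no matches overlapped one another. A kB match was present in 1.63% of 32851 promoters of the same length, and 2 or more were present in 0.0304%. Neither ISRE nor GAS letters were present in the 14 windows, where 3.44% and 8.30% of all promoters held them. A match is a run of letters and does not show binding.

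Gsdmd encodes gasdermin D, the pore former that both caspases cut. It had 6.15, 10.6 and 9.60 CPM in red blood cells 1, 2 and 3, and 6.95, 7.54, 6.10 and 7.41 CPM in saline 1 to 4. Red blood cells 2 and 3 were above every saline library, and red blood cells 1 was among them. The log2 fold change was 0.32 ± 0.22 (SE, edgeR adjusted p = 0.724), and it was 0.54 ± 0.21 without red blood cells 1 and 0.16 ± 0.24 without red blood cells 2.

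Among the cytokine genes, Il18 was the only one with more than 50 counts in most libraries. Interleukin-18 is made as a stored precursor, and its gene had 6.78, 8.62 and 6.70 CPM in red blood cells 1, 2 and 3, and 7.68, 8.18, 11.5 and 6.25 CPM in saline 1 to 4. The treated values fell inside the saline range. The log2 fold change was -0.21 ± 0.23 (SE, edgeR adjusted p = 0.865), and it was -0.00 ± 0.21 without saline 3, the highest library.

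Il1b encodes interleukin-1 beta, which is usually induced before an inflammasome can act on it. Its counts were 0, 13 and 1 in red blood cells 1, 2 and 3, and 1, 0, 0 and 0 in saline 1 to 4. A count of 3 corresponds to 0.359 CPM in the deepest library and 0.695 CPM in the shallowest, and red blood cells 2, at 1.97 CPM, was the one library above that floor. The ratio of summed levels was 17.9 with a 95% counting interval of 2.72 to 756, and the groups overlapped (exact permutation p = 0.286, two-sided). Without red blood cells 2 the difference in means was 0.0536 CPM. At this depth no Il1b difference was detectable outside that library.

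Il1a encodes interleukin-1 alpha, which is active without being cut by caspase-1. It had 5, 8 and 4 counts in red blood cells 1, 2 and 3, and 1, 2, 5 and 12 counts in saline 1 to 4. The highest library was saline 4, at 2.78 CPM, against 0.628 to 1.21 CPM in the treated libraries. The means were 0.854 ± 0.312 CPM with red blood cells, against 0.962 ± 1.23 CPM with saline (exact permutation p = 0.914, two-sided), and without saline 4 the treated mean was higher by 0.498 CPM.

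Il1rn encodes the receptor antagonist that holds interleukin-1 signalling in check. It had 8, 29 and 1 counts in red blood cells 1, 2 and 3, and 0, 0, 3 and 2 counts in saline 1 to 4. Red blood cells 1 and 2 were above all saline libraries, and red blood cells 3 was within them. The means were 1.86 ± 2.23 CPM with red blood cells, against 0.206 ± 0.241 CPM with saline (exact permutation p = 0.171, two-sided). Over summed counts the ratio was 9.71 with a 95% counting interval of 3.82 to 31.6, and 76.3% of the treated counts came from red blood cells 2. The ratio of means was 2.88 without that library.

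Il1r1 encodes the signalling receptor for both forms of interleukin-1. It had 19.7, 21.9 and 15.2 CPM in red blood cells 1, 2 and 3, and 14.6, 11.9, 15.8 and 20.2 CPM in saline 1 to 4. The groups overlapped, with saline 4 above 2 of the 3 treated libraries. The log2 fold change was 0.30 ± 0.18 (SE, edgeR adjusted p = 0.688), and it was 0.43 ± 0.17 without saline 4 and 0.18 ± 0.20 without red blood cells 2.

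**Figure D2:**
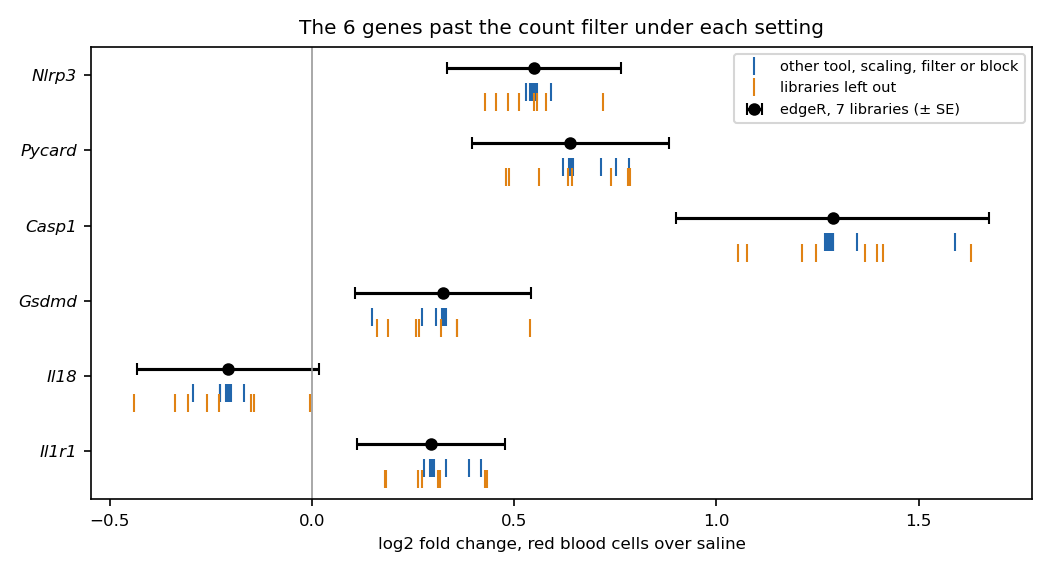
Log2 fold change (red blood cells over saline, horizontal axis) of the 6 genes past the count filter: black points are edgeR on 7 libraries with ± SE, blue ticks other tools, scalings, filters or the replicate block, and orange ticks fits with libraries left out. Casp1 stays between 1.05 and 1.63, and the ticks of Il18 reach from -0.44 to -0.00.

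Levels of different genes were compared per exon length, as TPM (transcript abundance scaled to exon length and library). With saline, Pycard (11.02 ± 3.17 TPM), Gsdmd (10.5 ± 0.87 TPM), Il18 (9.87 ± 2.80 TPM) and Il1r1 (7.69 ± 1.52 TPM) came first, with overlapping ranges (SD, n = 4). Nlrp3 followed at 3.71 ± 0.15 TPM, and its highest saline library (3.797 TPM) lay below the lowest of Il1r1 (5.94 TPM). Casp1 had 2.90 ± 1.40 TPM with saline and overlapped Nlrp3. Il1a, Casp4, Il1rn and Il1b averaged 1.45, 0.630, 0.220 and 0.0596 TPM with saline, neighbours in this order overlapping. With red blood cells the order of the abundant genes was similar, with Pycard at 16.7 ± 3.07 TPM, Gsdmd at 13.04 ± 3.30 TPM, Il1r1 at 9.24 ± 1.48 TPM and Il18 at 8.50 ± 1.02 TPM (SD, n = 3). Casp4 ranked 1 of the 10 by its mean with red blood cells and 8 by its mean with saline, at 7.67, 48.8 and 2.23 TPM in red blood cells 1, 2 and 3. In red blood cells 3 it was below Pycard, Gsdmd, Il18, Il1r1, Casp1 and Nlrp3.

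**Figure D3:**
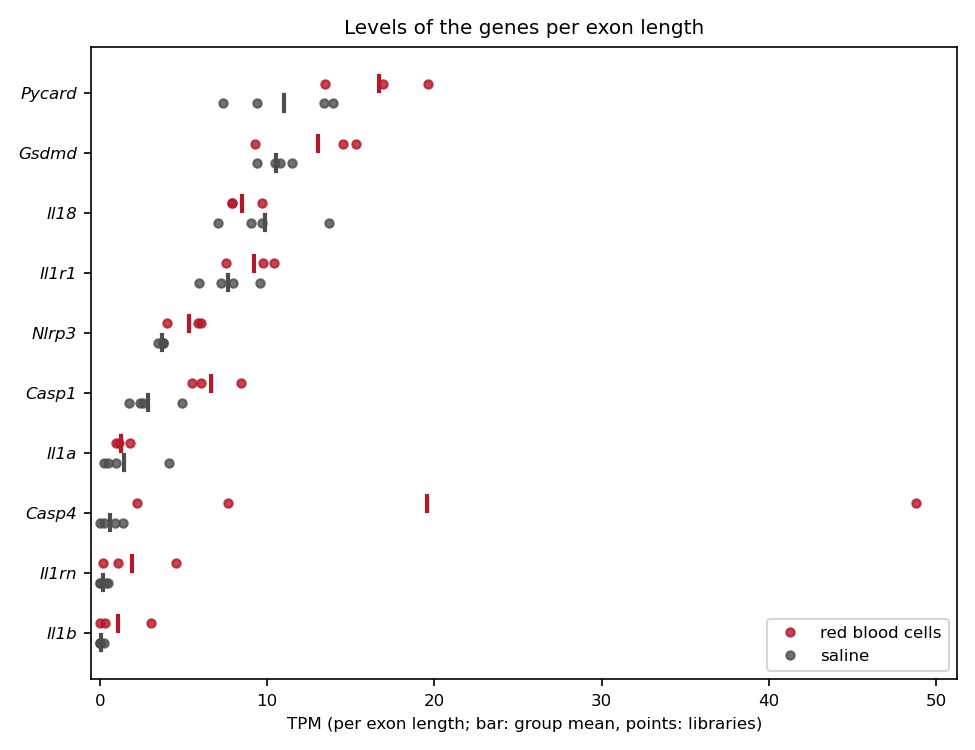
TPM (horizontal axis, linear) of the 10 genes, ordered by saline mean, with red blood cell libraries (red) above saline libraries (grey); points are libraries and vertical bars are group means. Casp4 spreads from 2.23 to 48.8 TPM with red blood cells, while Il1b stays at or below 3.03 TPM in all 7 libraries.

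On GRCm39, the build of the deposited table, Casp1 (5298517 to 5307281) and Casp4 (5308816 to 5336791) are neighbours on the plus strand of chromosome 9, and Il18 lies on the same strand and chromosome (50466000 to 50493141). Il1a (129141530 to 129151892) and Il1b (129206490 to 129213059) lie on the minus strand of chromosome 2, with Il1rn (24226872 to 24241503) on its plus strand. Nlrp3 spans 59432395 to 59457781 of chromosome 11, Gsdmd 75733990 to 75739257 of chromosome 15 and Il1r1 40261651 to 40355361 of chromosome 1, each on the plus strand. Pycard spans 127590545 to 127593039 of chromosome 7 on the minus strand. Genes on the opposite strand overlap some of them, and whether the counting used strand is not stated, so their reads may be mixed. The opposite-strand genes at Il1b, Gm29941 and Il1bos, summed to 48 and 1 counts in the treated libraries, against 95 and 9 in the saline libraries. Gm14023 at Il1a summed to 23 counts in the treated libraries and 24 in the saline libraries, and Bco2 at Il18 to 40 counts in the treated libraries and 64 in the saline libraries. A predicted gene across Casp1 and Casp4, Gm53496, had 0 counts in every library.

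The other genes of the pathway were taken from 8 lists of 100 genes, of which 66 were tested. The lists were chosen with earlier results of these data known, so shares set beside those of all genes are a description only. In edgeR 0 passed over all genes, with 34 higher and 1 lower at an unadjusted p under 0.05, where 5.22% and 4.32% of all genes tested were. DESeq2 called 30 of the 100, all higher, where it called 1.11% of its genes as higher. limma-voom called 1 (Bst2), against 0.0605% of all genes, and 5 with sample weights, against 0.323%. Their median log2 fold change was 0.85, where that of all genes tested was -0.00. Without red blood cells 2 edgeR called 7 of them, against 34 of all genes (0.225%), and without red blood cells 3 it called 12, against 283 of all genes (1.86%). Of the 30 DESeq2 calls, 20 lay in the interferon response list and 8 in the interleukin-1 responsive list. Of the 34 genes higher at an unadjusted p under 0.05 in edgeR, 19 and 8 lay in these lists. List medians of the log2 fold change ran from 0.06 (interleukin-1 receptor signalling) to 3.04 (interferon response).

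Among further ligands and binding proteins of the interleukin-1 family, 2 of 7 genes were tested. Il18bp, a secreted decoy that neutralizes interleukin-18, had 37, 119 and 23 counts in red blood cells 1, 2 and 3, and 11, 18, 13 and 13 counts in saline 1 to 4. All red blood cell libraries lay above all saline libraries (4.96% of all genes tested). Treated libraries averaged 8.94 ± 7.85 CPM (SD) and saline libraries 2.27 ± 0.79 CPM. The change, 2.02 ± 0.59 (log2, SE), did not pass in edgeR (adjusted p = 0.260) and passed in DESeq2 (adjusted p = 0.0254). Without red blood cells 2 it was 1.00 ± 0.36 (edgeR adjusted p = 0.524). Il33, an alarmin, averaged 8.39 ± 0.57 CPM in treated libraries against 7.17 ± 3.25 CPM in saline libraries (edgeR adjusted p = 0.930). limma-voom called 0 of this list.

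Of 7 further receptors 3 were tested, and 0 passed in edgeR, DESeq2 or limma-voom. At an unadjusted p under 0.05, 1 was lower (4.32% of all genes). That gene was Il1rap, the co-receptor that Il1r1 needs for signalling, at 84.2 ± 8.59 CPM in treated libraries against 104 ± 5.47 CPM in saline libraries (SD). All red blood cell libraries lay below all saline libraries (4.63% of all genes tested), and the log2 fold change was -0.30 ± 0.08 (SE, edgeR adjusted p = 0.198). Il1rl2, the receptor for the interleukin-36 cytokines, and Sigirr, an inhibitory member of the family, had log2 fold changes of 0.18 ± 0.22 and 0.38 ± 0.48. Il1r2, a decoy receptor below the count filter, had 2, 19 and 1 counts in treated libraries against 4, 0, 1 and 0 in saline libraries.

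The 12 genes of signalling below the receptor were all tested and 0 passed in edgeR, DESeq2 or limma-voom. At an unadjusted p under 0.05, 1 was higher (5.22% of all genes). This was Myd88, the adaptor shared with Toll-like receptors, at 14.4 ± 4.73 CPM in treated libraries against 8.74 ± 1.45 CPM in saline libraries (SD). Its log2 fold change was 0.71 ± 0.22 (SE, edgeR adjusted p = 0.253), and without red blood cells 3 it passed at 0.90 (edgeR adjusted p = 0.0405). Without red blood cells 2 it was 0.44 ± 0.21 and did not pass (edgeR adjusted p = 0.728). Irak3, which restrains this signalling, and Irak4, its upstream kinase, had log2 fold changes of 0.84 ± 0.46 and 0.39 ± 0.27. The median log2 fold change of the list was 0.06.

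Of 12 further inflammasome sensors 3 were tested, with 1 higher at an unadjusted p under 0.05 (5.22% of all genes). In edgeR, DESeq2 or limma-voom 0 passed. Naip2, which detects bacterial secretion components, averaged 2.74 ± 1.34 CPM in treated libraries against 1.37 ± 0.54 CPM in saline libraries (1.04 ± 0.44 in log2, edgeR adjusted p = 0.465). Aim2, a sensor of cytosolic DNA, averaged 4.46 ± 1.65 CPM in treated libraries against 2.70 ± 0.80 CPM in saline libraries (0.69 ± 0.33 in log2, edgeR adjusted p = 0.550), and Naip5 stood at 0.45 ± 0.71 in log2. Leaving out red blood cells 2 gave 0.57 for Naip2, 0.34 for Aim2 and -0.50 for Naip5, with 0 past edgeR. Nlrp6, chosen after its values were seen, had 0 counts in every library but saline 4, where it had 10.

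Of 14 regulators of inflammasomes 12 were tested, with 4 higher at an unadjusted p under 0.05 (5.22% of all genes). In edgeR or limma-voom 0 passed, and DESeq2 called 1 (Trim30a), where it called 1.11% of its genes as higher. Trim30a, an interferon-inducible ubiquitin ligase, averaged 29.8 ± 29.1 CPM in treated libraries against 4.24 ± 0.77 CPM in saline libraries. The difference was 2.81 ± 0.72 on the log2 scale (edgeR adjusted p = 0.260). With red blood cells 2 left out it was 1.63 ± 0.24, a smaller fold (3.10 against 7.01) that passed in edgeR (adjusted p = 0.0241). The GTPases Gbp2 and Irgm1, both interferon-inducible, had log2 fold changes of 1.24 ± 0.39 and 2.16 ± 0.73 (edgeR adjusted p = 0.260 and 0.404), and 0.84 and 1.16 without red blood cells 2, where neither passed. Nek7, a partner that Nlrp3 needs, had 0.04 ± 0.08. The list of other executioners of lytic or apoptotic death gave 0 of 4 tested past edgeR, DESeq2 or limma-voom and 0 at an unadjusted p under 0.05, with Gsdme at 0.34 ± 0.38 and Ninj1 at 0.11 ± 0.16.

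Genes known to respond to interleukin-1, which also respond to tumour necrosis factor and Toll-like receptor ligands, were tested for 11 of 22 members, with 8 higher at an unadjusted p under 0.05 (5.22% of all genes). DESeq2 called 8 of the list (1.11% of all its genes), limma-voom 0 (2 with sample weights) and edgeR 0. Vcam1, Icam1 and Tnfaip3 had the lowest p in the list, with edgeR adjusted p of 0.104, 0.176 and 0.198. Icam1, an adhesion molecule for leukocytes, had a log2 fold change of 3.61 ± 0.70, and 2.62 ± 0.25 without red blood cells 2, where it passed (edgeR adjusted p = 0.0176). Vcam1, another adhesion molecule, stood at 0.50 ± 0.10 and passed without red blood cells 3 (0.61, edgeR adjusted p = 0.0035). Without red blood cells 2 it was 0.37 ± 0.08 and did not pass (edgeR adjusted p = 0.142). Tnfaip3, which ends NF-kB signalling, averaged 11.2 ± 6.16 CPM in treated libraries against 4.84 ± 0.66 CPM in saline libraries (1.19 in log2, and 0.65 without red blood cells 2). The summed level of the list was 999.9, 2175 and 803 CPM in red blood cells 1, 2 and 3, and 602 to 657 CPM with saline. The median log2 fold change was 1.37, and 0.65 without red blood cells 2.

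Interferons are known to induce Casp4 in mouse macrophages. Genes of the interferon response were tested for 19 of 20 members, and 19 were higher at an unadjusted p under 0.05 (5.22% of all genes). DESeq2 called all 20 (1.11% of all its genes), limma-voom 1 (3 with sample weights) and edgeR 0. This list was chosen with earlier results of these data known, and the shares are a description only. edgeR called 5 without red blood cells 2 (Bst2, B2m, Gbp7, Psmb8 and Igtp) and 9 without red blood cells 3. The median log2 fold change of the list was 3.04, and 2.40 without red blood cells 2. Bst2, a tether of budding virus, averaged 311 ± 195 CPM in treated libraries against 38.1 ± 4.08 CPM in saline libraries (3.04 ± 0.44 in log2, edgeR adjusted p = 0.128). It was 2.40 ± 0.11 without red blood cells 2 and passed (edgeR adjusted p = 1.73e-06). Igtp and Gbp7, GTPases of cell-autonomous defence, had log2 fold changes of 2.38 ± 0.48 and 1.89 ± 0.36 (edgeR adjusted p = 0.137 for each). Both passed in edgeR without red blood cells 2, Igtp at 1.61 (adjusted p = 0.0442) and Gbp7 at 1.39 (adjusted p = 0.0176). Both also passed without red blood cells 3, Igtp at 2.71 (edgeR adjusted p = 0.00704) and Gbp7 at 2.17 (edgeR adjusted p = 0.0046). The order of the red blood cell libraries in the list's summed level, with library 2 first and library 3 last, was also that of Casp4, Casp1, Il1rn, Nlrp3, Pycard, Il1r1 and Il18, but not of Gsdmd, Il1a or Il1b. For Il18 it rests on 6.78 against 6.70 CPM in libraries 1 and 3. The share of all genes with this order was not computed, and a link with the list was not tested.

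**Figure D4:**
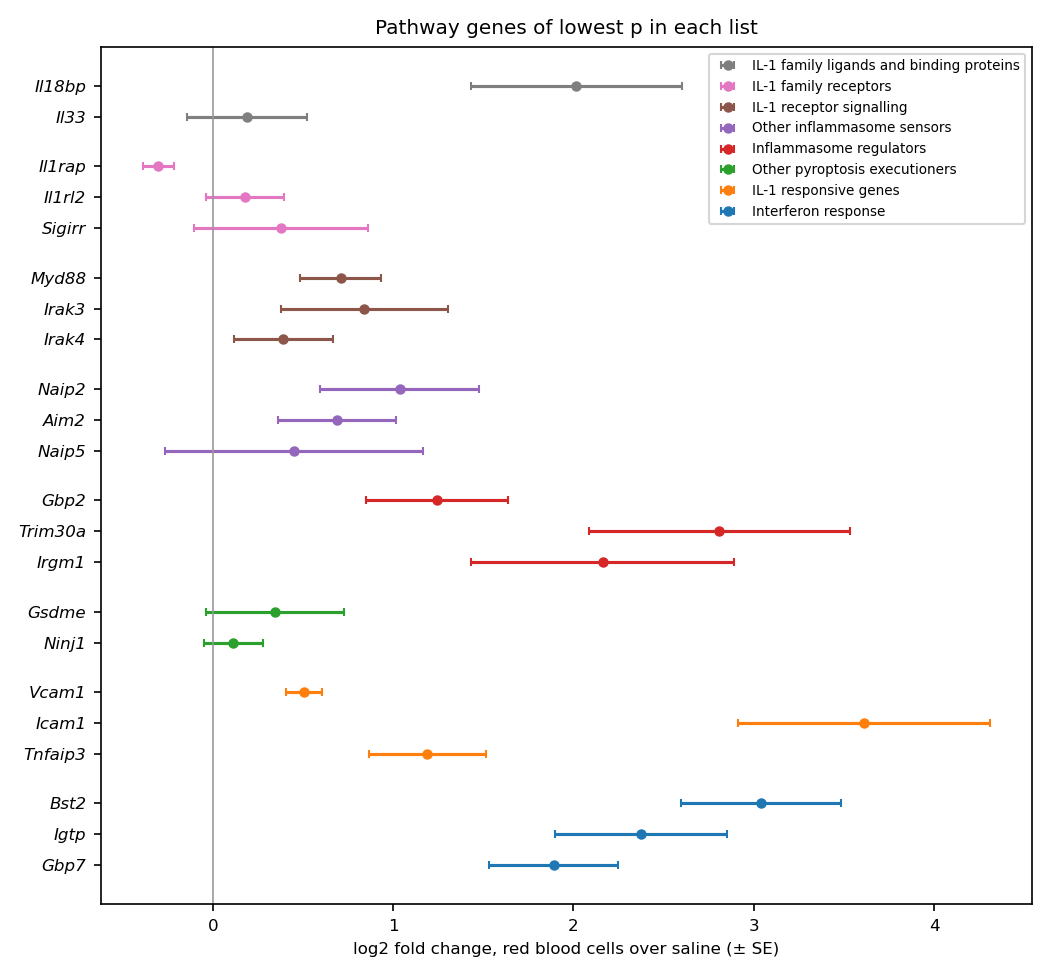
Log2 fold change (red blood cells over saline, horizontal axis, ± SE) of up to 3 genes of lowest p in each of 8 pathway lists, coloured by list. Il1rap lies below 0 at -0.30, and Icam1 and Bst2 lie farthest to the right at 3.61 and 3.04.

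Among the marker lists of other cell types, only that of macrophages had a higher summed level in every treated library than in any saline library. Macrophage markers were detected for 18 of 18 genes and summed to 447, 653 and 591 CPM in red blood cells 1, 2 and 3, and to between 279 and 378 CPM with saline. For 12 of the 18 all red blood cell libraries lay above all saline libraries, where 4.96% of all genes tested did so. At an unadjusted p under 0.05, 13 of the 18 were higher (5.22% of all genes). DESeq2 called 10, all higher (1.11% of all its genes). limma-voom called 0 (0.0605% of all genes), and 2 with sample weights (0.323%). edgeR called 1 (0.0605%), Adgre1 (F4/80), which rose by 1.09 ± 0.15 on the log2 scale (edgeR adjusted p = 0.028). The marker lists too were chosen with earlier results of these data known. Red blood cells 3 had more macrophage marker RNA than red blood cells 1. Of the 10 genes, Gsdmd, Il1a and Il1b were likewise higher in red blood cells 3 than in red blood cells 1, and the other 7 were lower. The share over all genes was not computed. Neutrophil and monocyte markers were detected for 15 of 16 genes, with Ly6g at 0 in every library, and summed to 11.8, 122 and 19.6 CPM in red blood cells 1, 2 and 3, and to between 6.42 and 28.0 CPM with saline. The part of these cell types, and of the interferon response, in the levels of the 10 genes was not tested.

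The summed levels of the other marker lists overlapped between the groups. Endothelial markers summed to between 840 and 1246 CPM with red blood cells, against 989 to 1041 CPM with saline, and mesenchymal and pericyte markers to between 1633 and 3054 CPM with red blood cells, against 1933 to 2093 CPM with saline, red blood cells 3 being the highest in both. Neural markers summed to between 205 and 273 CPM with red blood cells, against 244 to 299 CPM with saline, and erythroid markers to between 2249 and 2845 CPM with red blood cells, against 2208 to 3279 CPM with saline. Markers of mast cells, lymphoid cells and platelets summed to between 216 and 314 CPM with red blood cells, against 231 to 270 CPM with saline.

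**Figure D5:**
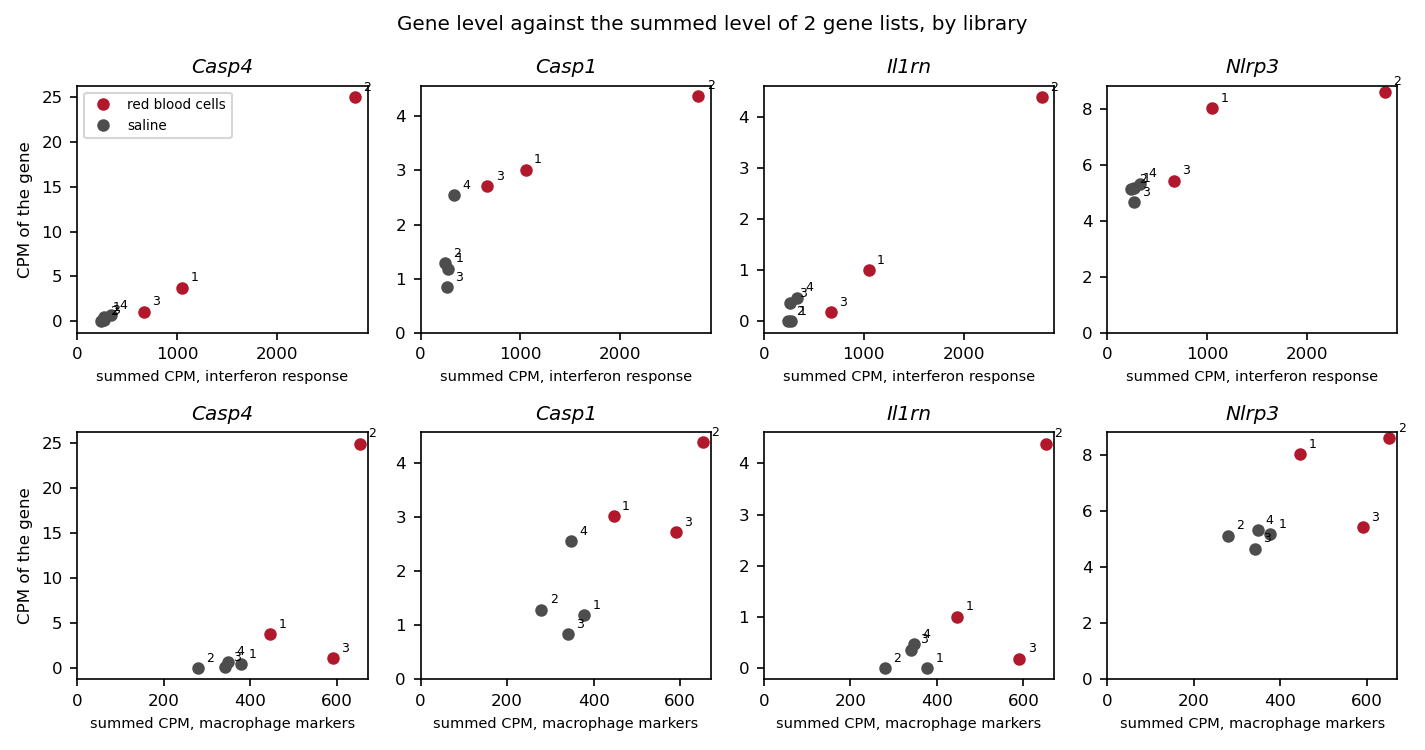
CPM of Casp4, Casp1, Il1rn and Nlrp3 (vertical axes) against the summed CPM of the interferon response list (top row) and the macrophage marker list (bottom row) in each library, red blood cells in red and saline in grey, with replicate numbers beside the points. Red blood cells 2, at 2780 CPM of the interferon list and 653 CPM of the macrophage list, is the highest library in every panel, and red blood cells 3 is below red blood cells 1 for all 4 genes.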

How the data were processed

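The labels' protocols describe poly(A) RNA of 7 choroid plexus pools and a directional kit. The authors deposited 1 table of raw read counts with exon coordinates and lengths. Its tools were featureCounts 2.0.6, STAR 2.6.1b and cutadapt 2.5, with GRCm39 as the build, per the submitters' processing notes. The annotation release and the handling of strand and multi-mapped reads were not stated. Lines of 6 genes are broken over 2 lines and were left out, and the 6 continuation lines, which carry no gene name, hold 0.107% of all counts.

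Counts were tested with edgeR 4.0.16 (robust quasi-likelihood F test, TMM, filterByExpr, no block, Benjamini-Hochberg over 14869 genes, threshold 0.05) under R 4.3.3. Standard errors derive from the F statistic. Genes below the filter were compared as CPM with exact permutation tests. TPM was computed from counts and exon lengths. Alternatives were DESeq2 1.42.0, limma 3.58.1 (voom), other scalings and filters, a replicate block and libraries left out. The tests were tried on simulated counts. Count intervals are exact (Clopper-Pearson based) and cover counting error only. Motif letters were searched in RefSeq promoters of GRCm38.p6, matched by symbol. No table of protein sequences was used here. Figures were drawn with matplotlib 3.10.9.

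The 10 genes, the lists and the motifs were chosen with earlier results of these data known. Named besides the 10 genes were up to 3 list genes of lowest p per list. One gene that this rule selects is not reported here. Il1r2, Nek7 and Nlrp6 were named after their values were seen.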

Additional observations from a re-analysis of the deposited data

Results flagged for a closer look

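Among 49 sets of saline values examined (the 10 genes, the named pathway genes and the summed levels of the lists), 2 held a library far from the other 3, and chance gives about 1 in 20. Il1b had 0.148 CPM in saline 1 and 0 in the other saline libraries, which is a single count. The summed level of neural progenitor and neuron markers was 244 CPM in saline 4, below 293 to 299 CPM in the other saline libraries.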

How the results depend on the processing

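The 6 genes past the count filter kept their direction and stayed above an adjusted p of 0.05 in all 18 other settings each, with the lowest adjusted p at 0.126 for Nlrp3, 0.162 for Pycard and 0.138 for Casp1 (0.129 for Casp1 with no count filter and a replicate block together). Of the 10 genes, DESeq2 called 1 and the other settings 0. Casp4, Il1a, Il1b and Il1rn fell below the count filter in most settings and were not tested there. The difference of Il1a in mean CPM (-0.108) turned to 0.00559 without red blood cells 1 and 0.498 without saline 4 (-0.379 to 0.498 over single libraries left out), and its log2 fold change was 1.22 with no count filter and a replicate block; it rests on 37 counts, and the cause was not tested. The 9 calls over all genes became 280 with DESeq2, 48 with sample weights, 136 with no count filter, 16 without robust estimation, 2 with a replicate block, 40 without red blood cells 2 and saline 4, and 1 at an adjusted p under 0.01. Leaving out red blood cells 1, 2 or 3 gave 17, 34 or 283 calls, leaving out saline 1, 2 or 3 gave 1, and leaving out saline 4 gave 5. The 0 calls among the 100 pathway genes became 30 with DESeq2, 1 with limma-voom, 5 with sample weights, 2 with no count filter, 3 without robust estimation, 1 with a replicate block, 7 without red blood cells 2 and saline 4, and 0 to 12 with single libraries left out. The labels do not state that libraries of the same number are paired. Deviations of the same-numbered pairs correlated at -0.008, -0.173 and -0.173, inside the spread of all pairs (-0.213 to 0.261). These values cannot show whether same-numbered libraries shared litters or handling. The block, in which saline 4 stands alone and adds nothing, called 0 of the 6 genes it tested, and red blood cells 1 correlated best with saline 3 (0.261). For Casp4, Il1a, Il1b and Il1rn the number of reads limits what can be seen.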

Other observations

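Over the 7 libraries, the genes whose log2 CPM followed each tested gene most closely, by Pearson's r among 14869 genes and as a description only, were these. Nlrp3 was followed by Fam110a (0.99), Txnrd1 (0.98) and Smoc1 (0.98). Pycard was followed by Nrde2 (0.98), Ptges (0.97) and Gsta4 (0.96). Casp1 was followed by Galnt6 (0.99), Ran (0.99) and Prpf31 (0.98). Gsdmd was followed by Rfc3 (0.99), Agrn (0.98) and Scamp4 (0.98). Il18 was followed by Kat2b (0.97), Pias2 (0.96) and Frmpd4 (0.96), and Il1r1 by Rrp1b (0.99), Nkrf (0.98) and Gm15689 (0.97). The libraries share the contrast of the groups and 1 outstanding treated library, and with so few of them high values of r are common.

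Among interleukin-1 responsive genes below or near the count filter, chosen after their values were seen, Saa3 had 17, 613 and 6 counts in red blood cells 1, 2 and 3, and 1, 1, 2 and 6 counts in saline 1 to 4. Lcn2, an iron-binding secreted protein gene, had 39, 2030 and 9 counts in treated libraries against 5, 2, 1 and 111 in saline libraries. Mmp3 had 0 counts in every library but saline 4, where it had 18. By CPM, saline 4 was the highest saline library for these 3 genes and for 7 of the 10 genes of the report (Nlrp3, Pycard, Casp1, Casp4, Il1a, Il1rn and Il1r1). For Casp4 this rests on 3 counts, the same number as in saline 1, and for Il1rn on 2 counts. Saline 4 is the shallowest library, and the share of all genes for which it is the highest saline library was not computed.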
